A study of Mus musculus with 6 samples.

Results

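The nuclear genes for mitochondrial ribosomal proteins were examined in pancreatic islets that lacked Neurod1 in beta cells. They were taken as all rows with a symbol that starts with Mrpl or Mrps followed by a number, which gave 76 of the 23284 genes counted. Of these, 47 carry an Mrpl symbol, used for the large subunit, and 29 an Mrps symbol, used for the small subunit. RNA-seq counts were available for 6 libraries of islets isolated from mice aged 12 weeks, all on the strain that the labels give as C56BL/J. The knockout group was Neurod1-floxed/floxed with Rip-Cre, a Cre recombinase under the rat insulin promoter, and is represented by libraries 4, 5 and 6. The control group was Neurod1-floxed/floxed without Cre and is represented by libraries 7, 10 and 16. Both groups therefore carried the floxed alleles, and the deletion and the presence of Cre cannot be told apart. Islets were hand-picked after a density gradient, so the RNA is of the whole islet and of any tissue that stayed attached, not of beta cells alone. Nothing in the labels ties a library to an animal of its own, so the p-values given measure only the spread between these samples, which may be technical.

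The mitochondrial ribosome sits in the matrix, bound to the inner membrane, and translates the few proteins that mitochondrial DNA encodes, all of them subunits of the respiratory chain or of ATP synthase. Its RNA comes from mitochondrial DNA, while its proteins are translated in the cytosol from nuclear genes and imported. Some of them descend from bacterial ribosomal proteins and others are found in mitochondria only. In beta cells, oxidative phosphorylation couples glucose metabolism to insulin secretion through the ATP it makes.

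Neurod1, the basic helix-loop-helix factor that was deleted, had 28.4, 29.8 and 31.3 CPM in knockout libraries 4, 5 and 6, against 198, 177 and 141 CPM in control libraries 7, 10 and 16. CPM stands for counts per 1e+06 counts of a library, after edgeR's TMM scaling. Its log2 fold change, knockout over control, was -2.53 (SE 0.13), and edgeR's quasi-likelihood test with Benjamini-Hochberg adjustment over all genes gave an adjusted p of 1.74e-05. The libraries held 12206393 to 20412435 counts, of which a tested mitoribosomal gene had 22 to 982. Beta cell hormone and factor genes (7 markers) took 14.1%, 14.6% and 13.3% of the counts in the knockout libraries and 17.8%, 17.3% and 19.3% in the control libraries, so the islet label held in each library. Of these 7 markers 2 rose and 2 fell past the threshold. The 14 acinar markers, genes of the exocrine pancreas, took 0.425%, 1.25% and 0.937% in knockout libraries, against 4.26%, 3.62% and 1.23% in control libraries, with control library 16 inside the knockout range. All 7 endothelial markers fell past the threshold in the knockout. In bulk tissue, fewer cells of a type and less RNA per cell cannot be told apart.

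Most genes with an Mrpl or Mrps symbol differed little between knockout and control islets, and those that passed the test were all higher in the knockout. This follows the symbol rule, since Dap3, a mitoribosomal protein gene with another symbol described below, fell past the threshold. Enough counts for the test were found for 75 of the 76 genes. At an adjusted p under 0.05, 8 of the 75 rose in the knockout (10.7%), none fell and 67 did not pass, where 11.8% of all 14770 genes tested rose and 12.6% fell. The share that rose was thus near that of all genes. By an unadjusted p under 0.05, edgeR placed 17 of the 75 genes higher and 1, Mrps2, lower, where it placed 17.9% of all genes higher and 19.6% lower. DESeq2 and limma-voom also called none of the 75 lower, where they called 11.4% and 12.2% of all genes lower. The 8 that rose were Mrpl18, Mrpl27, Mrpl28, Mrpl42, Mrpl45, Mrpl49, Mrps14 and Mrps34. Their log2 fold changes lay between 0.31 and 0.45. Across the 75 genes the log2 fold change ran from -0.26 to 0.45 with a median of 0.09, beside -0.01 for all genes tested, and it was above 0 for 53 and below 0 for 22 of them. Leaving out 1 library changed the count. It was 4 without knockout library 4 (10.1% of all genes rose), 5 without knockout library 5 (8.38%) and 5 without knockout library 6 (10.6%). It was 4 without control library 7 (8.84%), 2 without control library 10 (7.75%) and 10 without control library 16 (9.29%).

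**Figure D1:**
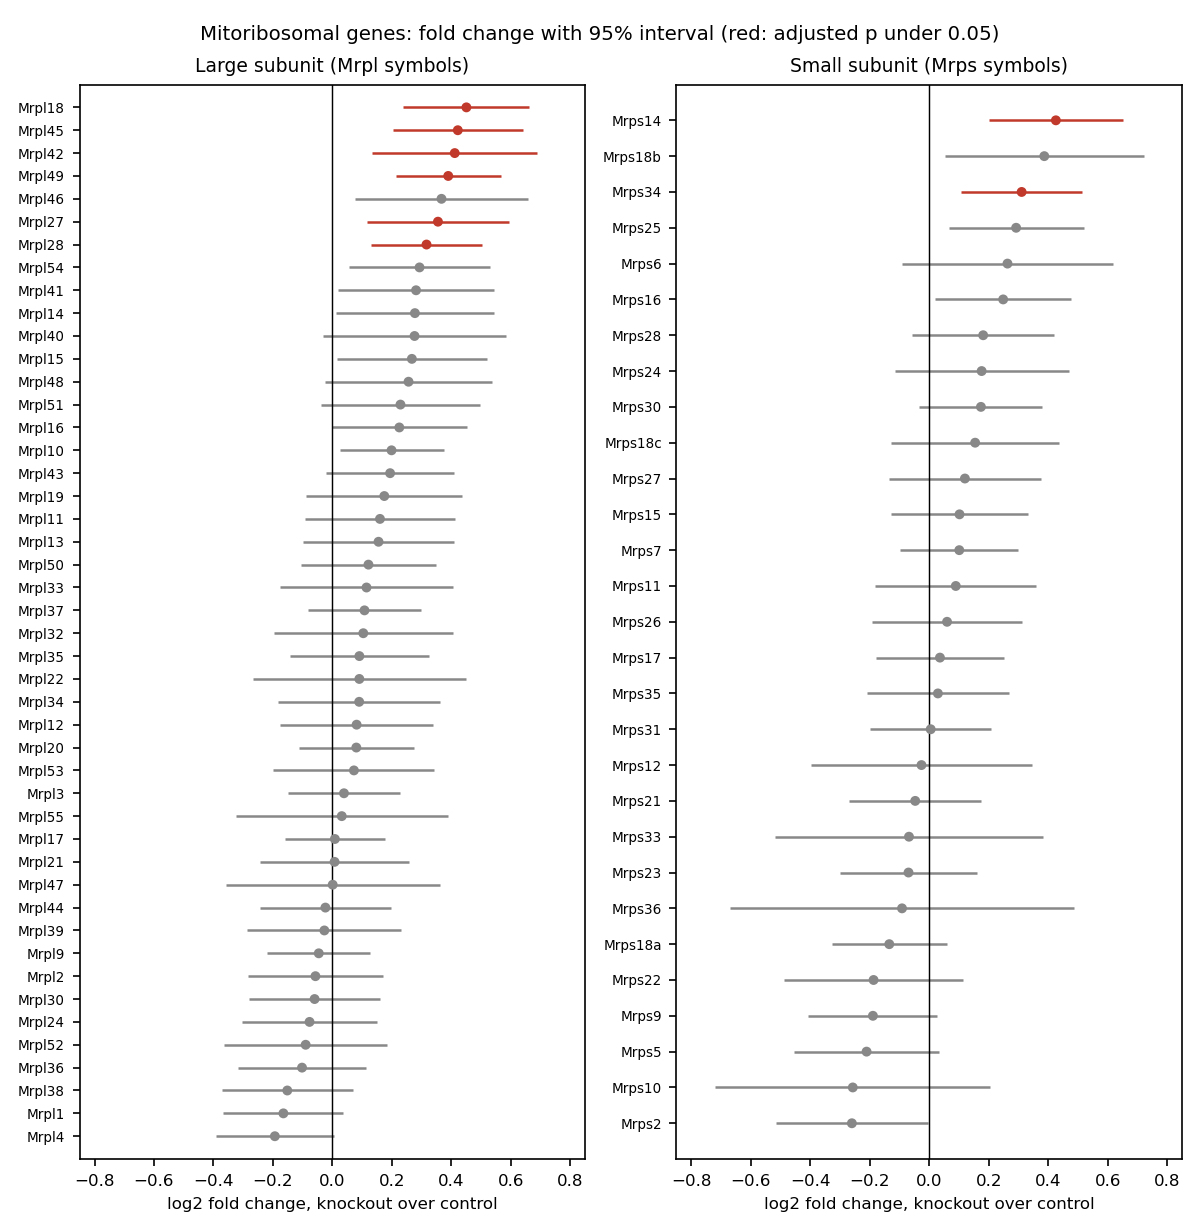
Log2 fold change of each tested mitoribosomal gene, knockout over control (x axis), with its 95% interval as a horizontal bar, for 46 large subunit genes at the left and 29 small subunit genes at the right, sorted by value. Red marks the 8 genes with an adjusted p under 0.05, all to the right of 0, and grey the 67 others, most of whose intervals cross 0.

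By subunit, 6 of 46 tested Mrpl genes rose (13.0%) and 2 of 29 Mrps genes rose (6.90%), beside 11.8% of all genes tested. The median log2 fold change was 0.11 for the large and 0.06 for the small subunit. Symbols do not always give the place of a protein. In structures of the mammalian mitoribosome, Mrps30 and Mrps18a are part of the large subunit, and the product of Mrps36 is now known as a subunit of the 2-oxoglutarate dehydrogenase complex. With these genes placed by structure, 6 of 48 large (12.5%) and 2 of 26 small subunit genes (7.69%) rose, with medians of 0.11 and 0.07. Subunit proteins with other symbols, described below, are not in these counts. Among them Aurkaip1 rose and Dap3 fell, both of the small subunit. The difference between the subunits was not tested, since genes are not replicates. Over the fits that left out 1 library, 2 to 8 large and 0 to 2 small subunit genes rose, the fewest of both without control library 10. Of proteins with a bacterial counterpart, 4 of 45 rose (8.89%), with a median of 0.09. Of proteins found in mitochondria only, 4 of 29 rose (13.8%), with a median of 0.12. Both shares are near the 11.8% of all genes. These role groups, and those of regions below, were assigned after the values had been seen.

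The values of the 8 genes did not overlap between the groups, with gaps that differed in size. Since the test that picked them used the same libraries, this is no further support. Of all genes tested, 20.0% had every knockout library above every control library. Mrpl49, a large subunit protein found in mitochondria only, had 32.2, 33.5 and 32.7 CPM in knockout libraries 4, 5 and 6, against 23.7, 25.4 and 26.1 CPM in control libraries 7, 10 and 16. Every knockout library lay above every control library, and the means were 32.8 ± 0.67 and 25.0 ± 1.21 CPM (SD, n = 3 each). Its log2 fold change of 0.39 (SE 0.08) had the lowest adjusted p from edgeR among the 75 genes, 0.00787. Mrpl18, which contacts the 5S ribosomal RNA in bacteria and lies in the central protuberance, a crest on the large subunit, had 18.4, 18.6 and 18.6 CPM in the knockout, against 13.4, 12.8 and 14.4 CPM in the control. The groups did not overlap, and the log2 fold change of 0.45 (SE 0.09, adjusted p = 0.00926 by edgeR) was the highest of the 75. These were also the genes called in each of the 6 fits that left out a library, with adjusted p-values from edgeR of 0.0150 to 0.0305 for Mrpl49 and 0.0154 to 0.0428 for Mrpl18.

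Mrpl45 lies at the exit of the tunnel through which the new protein leaves and helps anchor the ribosome to the inner membrane. It had 18.4, 17.8 and 18.4 CPM in the knockout libraries and 14.5, 12.7 and 13.6 CPM in the control libraries, without overlap (log2 fold change 0.42, SE 0.10, adjusted p = 0.0141 by edgeR). Mrps14 belongs to a universal small subunit family and lies in the head of that subunit. It had 40.5, 35.8 and 38.2 CPM in the knockout and 28.3, 25.3 and 31.8 CPM in the control, again without overlap (log2 fold change 0.43, SE 0.10, adjusted p = 0.0152 by edgeR). Both missed the threshold when control library 10 was left out, with adjusted p-values from edgeR of 0.0599 for Mrpl45 and 0.0549 for Mrps14.

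The other 4 genes passed by a smaller margin. Mrpl28, of a bacterial large subunit family, had 34.1, 31.4 and 33.7 CPM in the knockout and 25.2, 26.3 and 28.3 CPM in the control (log2 fold change 0.32, SE 0.08). Mrps34, a small subunit protein found in mitochondria only and needed for stable small subunit ribosomal RNA, had 26.6, 26.1 and 27.4 CPM in the knockout and 21.0, 20.4 and 23.3 CPM in the control (0.31, SE 0.09). Mrpl27, whose bacterial counterpart reaches to the peptidyl transferase centre, had 17.8, 17.6 and 17.9 CPM in the knockout and 13.1, 13.0 and 15.6 CPM in the control (0.35, SE 0.10). In all 3 the groups did not overlap, and the knockout libraries lay closer together than the control libraries in Mrps34 and Mrpl27. Mrpl42, found in mitochondria only, had 24.6, 22.2 and 20.6 CPM in the knockout and 14.9, 16.4 and 19.4 CPM in the control, so the lowest knockout library lay just above the highest control library (log2 fold change 0.41, SE 0.12). Their adjusted p-values from edgeR were 0.0233 for Mrpl28, 0.0345 for Mrps34, 0.0384 for Mrpl27 and 0.0393 for Mrpl42. Leaving out 1 library ended the call of Mrpl28 and of Mrpl42 in 4 of 6 fits each, and of Mrps34 and of Mrpl27 in 5 of 6 fits each.

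**Figure D2:**
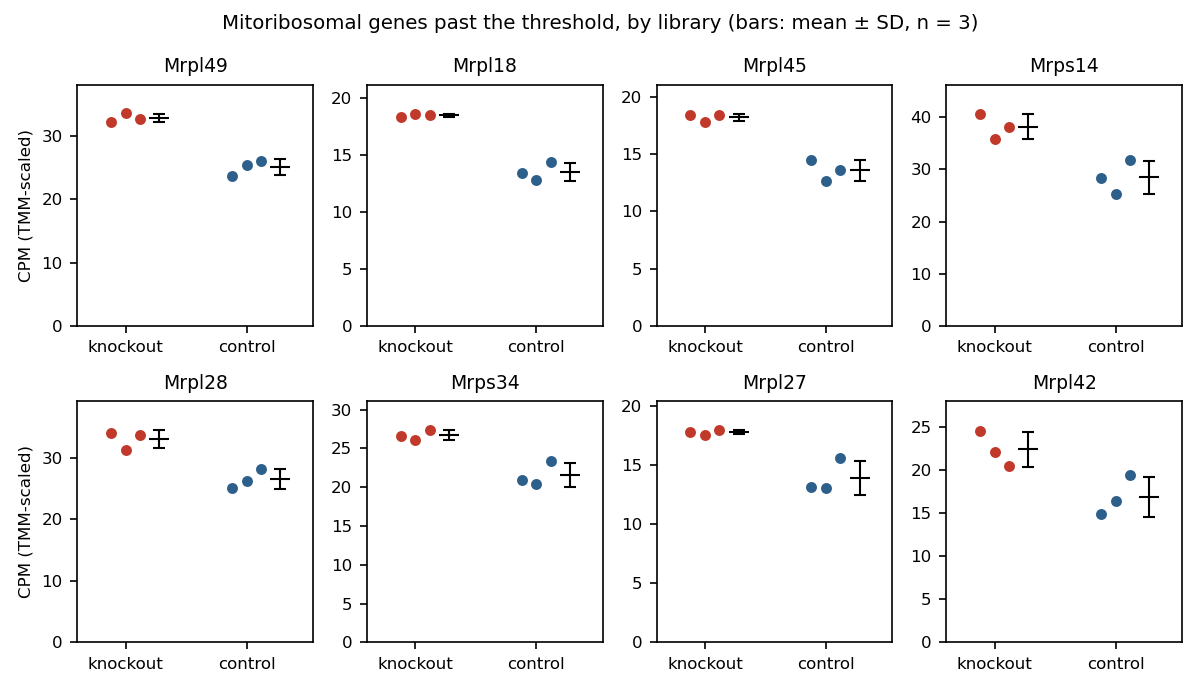
CPM (y axis, from 0, TMM-scaled) of the 8 mitoribosomal genes past the threshold in each knockout library (red, 4, 5 and 6 from left to right) and each control library (blue, 7, 10 and 16), with the mean ± SD (n = 3) beside each group. In each panel the 3 knockout libraries lie above the 3 control libraries, and the gap is smallest for Mrpl42.

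Promoter sequences of 7 of the 8 genes were found in RefSeq (GRCm38.p6). Stretches of 200 bases, from 170 before to 30 after the annotated start, are shown 5′ to 3′ on the gene's strand for 4 of them: Mrpl49 and Mrps14, which rose but hold none of the motifs searched, and Mrpl45 and Mrpl27, which hold motifs of factors known to bind promoters of mitochondrial genes. They are Mrpl49 at chr19:6057726-6057925 (minus strand), Mrps14 at chr1:160195045-160195244 (plus), Mrpl45 at chr11:97315546-97315745 (plus) and Mrpl27 at chr11:94653621-94653820 (plus). Capitals mark the core motif of NRF1 in Mrpl45, and the ETS motif CCGGAAG (upstream) and the YY1 motif ATGGCGG (downstream of the start) in Mrpl27.
Mrpl49: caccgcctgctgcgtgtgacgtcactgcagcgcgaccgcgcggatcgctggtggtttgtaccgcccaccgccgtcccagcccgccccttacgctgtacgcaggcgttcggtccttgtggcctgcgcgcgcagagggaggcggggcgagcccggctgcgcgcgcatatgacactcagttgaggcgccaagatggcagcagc
Mrps14: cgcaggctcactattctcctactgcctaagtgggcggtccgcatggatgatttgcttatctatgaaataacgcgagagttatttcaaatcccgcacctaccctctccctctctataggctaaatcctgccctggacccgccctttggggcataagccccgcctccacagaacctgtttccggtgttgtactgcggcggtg
Mrpl45: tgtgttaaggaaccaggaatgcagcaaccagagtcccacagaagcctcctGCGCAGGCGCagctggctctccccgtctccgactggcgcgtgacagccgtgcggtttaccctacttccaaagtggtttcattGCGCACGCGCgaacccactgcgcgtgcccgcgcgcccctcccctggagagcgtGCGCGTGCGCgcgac
Mrpl27: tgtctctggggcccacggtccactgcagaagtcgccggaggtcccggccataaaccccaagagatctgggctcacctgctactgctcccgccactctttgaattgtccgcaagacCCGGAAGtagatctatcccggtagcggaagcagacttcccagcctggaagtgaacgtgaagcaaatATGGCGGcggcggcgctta

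The motifs were searched on both strands of windows from 250 bases before to 50 after the start, of which 73 belonged to 67 of the 76 genes. Mrpl13, Mrpl15, Mrpl19, Mrpl38, Mrpl4, Mrpl54, Mrps28, Mrps34 and Mrps35 were not matched. The NRF1 core was in 16.4% of the mitoribosomal windows, against 4.6% of all 32851 windows. The ETS motif, bound by GABPA among others, was in 32.9% against 8.86%, and the YY1 motif, which can overlap a start codon, in 17.8% against 4.05%. At least 1 of the 3 was in 54.8% of the mitoribosomal windows and in 15.5% of all windows. The E-box CAGATG, a form that factors of the Neurod1 class bind, was in 8.22% against 17.2%, and the E-box CAGCTG in 15.1% against 16.3%. Among the 7 genes that rose and had a window, the NRF1 core was in Mrpl45, the ETS motif in Mrpl18 and Mrpl27, the YY1 motif in Mrpl27, CAGCTG in Mrpl42 and Mrpl45, and CAGATG in none. A match describes letters and is not a binding site, and all windows include promoters of genes that islets do not express.

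In GENCODE M21, 22 of the 76 mitoribosomal genes (28.9%) had a coding gene that starts on the opposite strand within 1000 bp upstream or overlaps the start by up to 300 bp, against 1819 of 20233 coding genes (8.99%). Of the 22 partners, 21 had enough counts for the test and none passed the threshold in edgeR, where 24.4% of all genes passed in either direction. An unadjusted p under 0.05 was reached by 6 of the 21, against 37.5% of all genes, and their median log2 fold change was -0.15. The mitoribosomal genes with a partner had a median of 0.12, and those without one a median of 0.08. Fau, which encodes the ribosomal protein S30 of the cytosol, starts 59 bp from Mrpl49, which rose. Fau had 6.57, 4.22 and 5.70 CPM in the knockout and 4.85, 3.19 and 6.93 CPM in the control, which overlap. Its log2 fold change was 0.15 (SE 0.30, adjusted p = 0.747 by edgeR). The confidence interval of Fau, -0.52 to 0.83, contains the 0.39 of Mrpl49. These values therefore cannot show that Fau and Mrpl49 differed, and their difference was not tested. Eme2, which starts 29 bp from Mrps34, had a log2 fold change of -0.05 (adjusted p = 0.771 by edgeR), and Eme1, beside Mrpl27, had too few counts for the test.

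Some counts cannot be assigned to 1 gene with certainty. The sources used here do not give whether counting used strand, which matters for overlaps on opposite strands. Overlaps on the same strand and near copies stay uncertain whether or not strand was used. Exons of 32 of the 76 genes overlap another annotated gene, and 19 have a near copy elsewhere in the genome of at least 95% identity over at least 250 bp. Among the 8 genes that rose, Mrps34 shares 63.4% of its exon length with Mapk8ip3 on the opposite strand and 37.0% with Nme3 on its own strand. Both of these also rose, Mapk8ip3 with a log2 fold change of 0.28 (adjusted p = 0.0215 by edgeR) and Nme3 with 0.37 (adjusted p = 0.0158), so the rise of Mrps34 is uncertain. Mrpl27 and Mrpl42 have processed pseudogenes of 98.9% and 96.3% identity. The overlaps of Mrpl18, Mrpl27 and Mrpl49 cover 10.1%, 7.61% and 4.85% of their exons, and Mrpl28, Mrpl45 and Mrps14 have neither an overlap nor a near copy. Mrpl23, which lines the exit tunnel, was the 1 gene with too few counts, at 11, 6 and 6 counts in the knockout and 5, 8 and 5 counts in the control, and it has a pseudogene that is 100% identical over 540 bp.

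By region of the large subunit, the central protuberance had the highest median. Of its 7 proteins, Mrpl18 and Mrpl27 rose (28.6%, beside 11.8% of all genes tested). Mrpl46, Mrpl40, Mrpl48, Mrpl55 and Mrpl38 did not pass, with log2 fold changes of 0.37, 0.28, 0.26, 0.03 and -0.15. The median over the 7 was 0.28. Mrpl46 had 18.5, 22.6 and 17.3 CPM in the knockout and 15.5, 13.6 and 16.3 CPM in the control, with no overlap and an adjusted p of 0.0678 by edgeR. Among the 5 proteins of the stalk, which recruits translation factors, none passed, all had a log2 fold change above 0 and the median was 0.16. Of the stalk proteins, Mrpl10, the mitoribosomal gene with the highest level per kilobase of exon, had 54.7, 58.8 and 53.9 CPM in the knockout and 45.3, 48.2 and 52.5 CPM in the control, and did not pass (log2 fold change 0.20, SE 0.08, adjusted p = 0.093 by edgeR). Of the 7 tested proteins around the exit tunnel, Mrpl45 rose and the other 6 lay between -0.08 and 0.09, with a median over the 7 of 0.00.

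Other genes with high counts in each subunit did not pass. In the large subunit, Mrpl17, an exit tunnel protein, had 38.0, 36.3 and 34.7 CPM in the knockout and 37.3, 34.3 and 36.7 CPM in the control (log2 fold change 0.01, 95% interval -0.16 to 0.18). Mrpl50 had 37.5, 34.2 and 31.0 CPM in the knockout and 29.5, 30.3 and 34.9 CPM in the control (0.12, interval -0.11 to 0.35). In the small subunit, Mrps23 had 35.1, 31.8 and 31.3 CPM in the knockout and 34.4, 30.3 and 38.6 CPM in the control (-0.07, interval -0.30 to 0.16). The groups overlapped in all 3. Mrps18a is of the small subunit by symbol but of the large by structure. It had 27.6, 24.5 and 27.6 CPM in the knockout, all below the 28.6, 28.4 and 30.3 CPM in the control, and did not pass (-0.13, adjusted p = 0.283 by edgeR). Mrps12, the counterpart of the bacterial decoding-site protein S12, spread widely, with 27.9, 33.5 and 20.8 CPM in the knockout and 30.4, 26.2 and 27.3 CPM in the control (-0.03, SE 0.16).

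On the lower side, 5 genes had all knockout libraries below all control libraries without passing the test: Mrpl4, Mrps2, Mrps5, Mrps9 and Mrps18a. With the 21 genes whose knockout libraries all lay above, this compares with 20.0% of all genes tested with no overlap upward and 22.0% downward. By symbol, 15 of the 21 were large and 6 small subunit genes, and of the 5, 1 and 4. By structure, which moves Mrps30 and Mrps18a to the large subunit, these counts were 16 and 5, and 2 and 3. Mrps2 had 27.0, 20.4 and 22.8 CPM in the knockout and 28.1, 27.0 and 29.0 CPM in the control (log2 fold change -0.26, SE 0.11, adjusted p = 0.126 by edgeR). Knockout library 4 lay level with the lowest control library to within rounding, and without it Mrps2 was called lower (adjusted p = 0.0448 by edgeR, with 8.92% of all genes lower). Mrpl4, of a bacterial large subunit family, had 27.7, 27.1 and 27.0 CPM in the knockout and 30.4, 29.0 and 34.3 CPM in the control (log2 fold change -0.19, adjusted p = 0.141 by edgeR). A p that misses the threshold does not show that levels were alike. The 95% intervals of 61 of the 67 genes that did not pass lay inside a 1.5-fold change in either direction, and the widest, of Mrps36, reached 0.58 to either side of its log2 fold change.

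Levels between genes were compared per kilobase of annotated exon. The median over 75 genes was 7.54 CPM per kb, from 0.474 for Mrps10 to 30.6 for Mrpl10. Next to Mrpl10 came Mrps21, Mrps12 and Mrpl54. The median was 10.5 for the large and 5.62 CPM per kb for the small subunit. Exon unions include every annotated transcript end, which lowers the value of genes with long untranslated variants. The log2 fold change had no clear relation to exon length, with a Spearman coefficient of -0.13 over the 75 genes and 0.02 over 14608 genes with a length, given as a description over genes that share the same libraries.

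Summed over their genes, both subunits were a little higher in the knockout, with overlap. The large subunit genes summed to 1002, 978 and 967 CPM in knockout libraries 4, 5 and 6, and to 877, 869 and 981 CPM in control libraries 7, 10 and 16. The small subunit genes summed to 523, 506 and 507 CPM in the knockout, and to 481, 469 and 518 CPM in the control. Control library 16 lay inside the knockout range for the large subunit sum and for the small subunit sum. The means were 8.08% higher for the large and 4.57% higher for the small subunit. The ratio of the large to the small sum was 1.92, 1.93 and 1.91 in knockout libraries, against 1.82, 1.85 and 1.89 in control libraries. The knockout ratios all lay above the control ratios, with control library 16 nearest. The mean ratio was 3.42% higher in the knockout, and 1.02 times the control without the most abundant gene of each subunit. No p was computed for these sums.

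**Figure D3:**
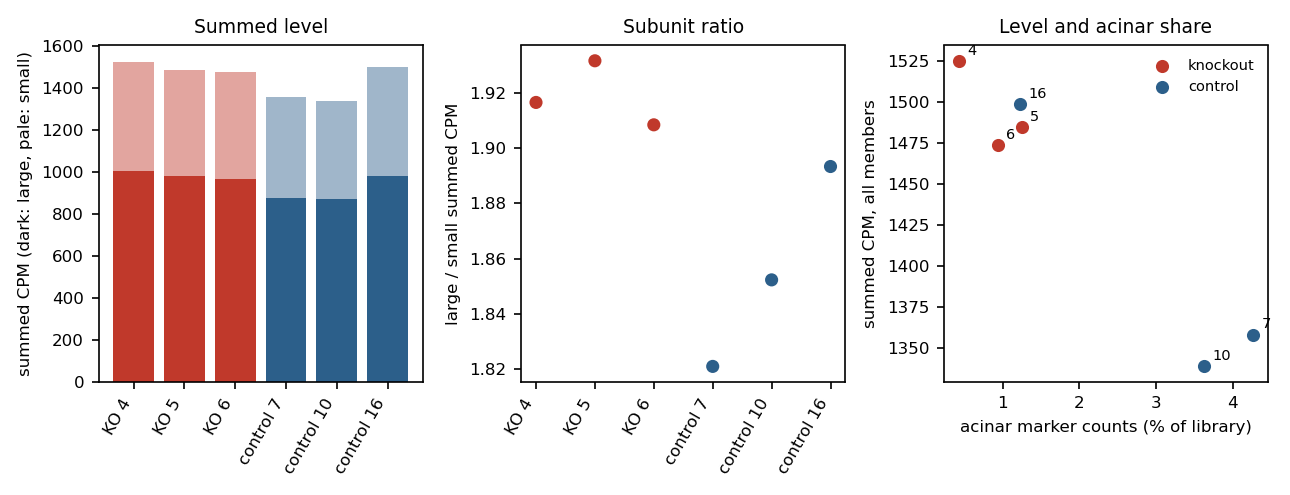
Left, summed CPM (y axis, from 0) of large subunit genes (dark) and small subunit genes (pale) in each knockout (KO, red) and control (blue) library. Middle, the ratio of the 2 sums (y axis does not start at 0). Right, the sum over all mitoribosomal genes (y axis in CPM, not from 0) against the share of counts from 14 acinar markers (x axis, percent), each point labelled with its library number. Control library 16 stands beside knockout libraries 5 and 6, while control libraries 7 and 10 have the most acinar counts and the lowest sums.

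These sums were lowest in the libraries with the most acinar counts, but did not follow the order of the acinar share among the other libraries. Control libraries 7 and 10, with 4.26% and 3.62% acinar counts, had the lowest sums over all mitoribosomal genes, 1358 and 1339 CPM, and control library 16, with 1.23%, had 1499 CPM. Knockout libraries 4, 5 and 6, with 0.425%, 1.25% and 0.937%, had 1525, 1485 and 1474 CPM. Of the 14 acinar markers, Ptf1a and Rbpjl, both acinar transcription factors, passed the test as lower, and none was at 0 in all libraries. Knockout library 5 and control library 16 had nearly the same acinar share, 1.25% and 1.23%, and were set side by side for that reason after the values were seen. Between them 34 of the 75 mitoribosomal genes were higher in the knockout library and the median log2 ratio was -0.02. The 8 genes that rose were higher in it, as in any such pair, since their groups do not overlap. A single pair carries no test. With the mean acinar marker level as a covariate, none of the 75 genes passed in edgeR, where 4.33% of all genes were higher and 3.20% lower. At an unadjusted p under 0.05, 1 of the 75 was higher and 3 were lower in that fit, against 12.5% and 12.3% of all genes. The medians were then -0.07 for the large and -0.03 for the small subunit. In that fit Mrpl45, Mrpl18 and Mrpl49 had log2 fold changes of 0.42, 0.38 and 0.35. Those of Mrps34, Mrpl27, Mrps14 and Mrpl28 were 0.19, 0.17, 0.16 and 0.15, from 0.31, 0.35, 0.43 and 0.32 without the covariate. Mrpl42 had 0.05, from 0.41. The median standard error was 0.18 with the covariate and 0.10 without it, and adjusted p-values of the 8 genes ran from 0.186 to 0.899. The acinar level differed between the groups, so in this design its part and that of the genotype cannot be told apart. The shares of the endothelial, the beta cell, the alpha cell and the stellate and fibroblast markers did not overlap between the groups. In each of them control library 16 lay farthest from the knockout libraries, for the endothelial markers by a narrow margin. In the acinar share it lay nearest. Alpha cell markers (4, of which 1 fell) took 3.29%, 2.97% and 2.51% of the counts in the knockout, against 3.50%, 3.67% and 4.88% in the control. The endothelial markers took 0.0473%, 0.0486% and 0.0428% of the counts in the knockout, against 0.0668%, 0.0665% and 0.0678% in the control. The 5 stellate and fibroblast markers, 2 of which fell, took 0.0552%, 0.0533% and 0.0418% in the knockout, against 0.0584%, 0.0813% and 0.0864% in the control. Of 5 duct markers 2 also fell. The part of these cell types in the results was not tested.

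Mitoribosomal proteins that carry other symbols showed changes in both directions. Of 7 such genes, Aurkaip1 rose and Dap3 fell (14.3% each), both of them proteins of the small subunit. Over all genes tested, 11.8% rose and 12.6% fell. Aurkaip1 had 38.4, 39.8 and 36.3 CPM in the knockout and 27.4, 27.0 and 30.7 CPM in the control (log2 fold change 0.43, SE 0.08, adjusted p = 0.00631 by edgeR). Dap3, which binds GTP and was first described in cell death, had 48.4, 54.5 and 51.7 CPM in the knockout and 62.5, 61.1 and 64.9 CPM in the control (-0.29, SE 0.07, adjusted p = 0.0182 by edgeR). Neither overlapped between groups. The other 5, which include the peptide release factor Ict1 and Ptcd3, lay between -0.17 and 0.27 and did not pass.

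Of 24 tested genes for assembly of the mitoribosome and modification of its RNA, 1 rose and 1 fell, with a median log2 fold change of -0.08. Over all genes tested, 11.8% rose and 12.6% fell. Mrm1, a methyltransferase of the large ribosomal RNA, had 18.4, 20.2 and 18.9 CPM in the knockout and 11.2, 13.2 and 15.1 CPM in the control (0.54, SE 0.12, adjusted p = 0.0136 by edgeR). Mterfd1, also known as Mterf3 and required for ribosome assembly, had 32.4, 25.9 and 32.1 CPM in the knockout and 38.4, 36.8 and 40.0 CPM in the control (-0.35, SE 0.10, adjusted p = 0.0335 by edgeR). Rmnd1 had too few counts for the test. Of 14 translation factors and mRNA partners, 1 fell and none rose, with a median of 0.02. Lrpprc, which stabilises mitochondrial messenger RNAs, had 66.1, 58.0 and 64.1 CPM in the knockout, all below the 90.6, 87.8 and 85.4 CPM in the control (-0.49, SE 0.07, adjusted p = 0.00181 by edgeR).

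Over all genes tested, 24.4% passed in edgeR in either direction. Among 14 genes of mitochondrial DNA replication, transcription and RNA processing, only Polg, the DNA polymerase of mitochondria, passed. It had 36.1, 37.7 and 38.0 CPM in the knockout and 47.0, 43.2 and 43.4 CPM in the control (-0.26, SE 0.07, adjusted p = 0.0276 by edgeR). None of 9 regulators of mitochondrial biogenesis passed in edgeR, 1 of them, Ppargc1a, having an unadjusted p under 0.05 (log2 fold change -0.75, adjusted p = 0.121). Yy1, the one with the most counts, had 62.8, 64.5 and 62.5 CPM in the knockout and 62.2, 57.9 and 57.8 CPM in the control (0.09, SE 0.06). Nrf1 and Gabpa, whose motifs are described above, had log2 fold changes of 0.02 and -0.03. Of 16 import and matrix proteins, Cs, the citrate synthase, and Vdac1, a channel of the outer membrane, rose, with log2 fold changes of 0.27 (adjusted p = 0.0121) and 0.23 (adjusted p = 0.0489), and Lonp1, a protease of the matrix, fell by 0.22 on the log2 scale (adjusted p = 0.0417, all by edgeR). Cs had 114, 115 and 113 CPM in the knockout and 95.7, 90.7 and 96.9 CPM in the control. Vdac1 had 161, 164 and 148 CPM in the knockout and 127, 135 and 141 CPM in the control, and Lonp1 79.0, 73.6 and 80.9 CPM against 90.6, 87.3 and 93.5 CPM.

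**Figure D4:**
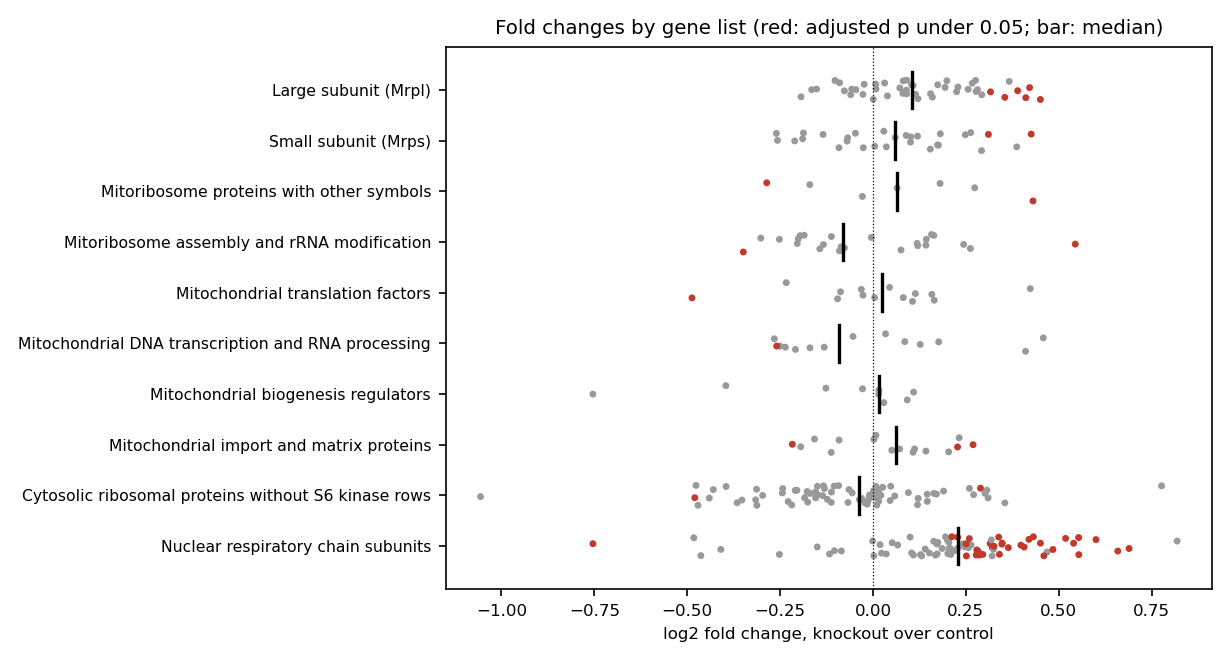
Log2 fold change, knockout over control (x axis), of every tested gene (point) of 10 gene lists (rows), with red for an adjusted p under 0.05 and a black bar at the median of the list. The mitoribosomal lists and the other mitochondrial expression lists have medians between -0.09 and 0.11, and the nuclear respiratory chain list has a median of 0.23.

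These 6 mitochondrial lists together had 84 tested genes, of which 4 rose (4.76%) and 5 fell (5.95%), with a median of 0.01. Over all genes tested, 11.8% rose and 12.6% fell. Leaving out 1 library gave 2 to 4 higher and 1 to 3 lower, the fewest higher without control library 10 and the fewest lower without control library 7. Nuclear genes matched by symbol to the respiratory chain and ATP synthase moved more. Of 79, 32 rose (40.5%) and 1, Ndufa4l2, fell, with a median of 0.23, where 11.8% of all genes rose and 12.6% fell. The number that rose was 13 without control library 10 (7.75% of all genes rose) and 37 without control library 16 (9.29%). With the acinar covariate it was 0 (4.33%). The difference between this list and the mitoribosomal genes was not tested. Rows matched by symbol to cytosolic ribosomal proteins gave 2 higher and 2 lower of 89 with a median of -0.06. Of these rows, 10 were of the S6 kinase family (Rps6k symbols), among them Rps6ka3, which rose, and Rps6ka2, which fell. Without the 10 rows, 1 of 79 genes was higher and 1 lower, and the median was -0.04. The lists were chosen with earlier results of these data known and share the same 6 libraries.

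Most calls held under another tool or scaling. All 8 passed with limma-voom (11.3% of all genes rose), with RLE factors (12.3%), with library totals alone (12.0%) and without robust estimation (11.5%). DESeq2, with 12.3% of all genes higher, called 7 of them, all but Mrpl27 (adjusted p = 0.0571). Upper-quartile factors, with 10.6%, left 5, without Mrps34, Mrpl27 and Mrpl42 (adjusted p = 0.0521, 0.0547 and 0.0531 by edgeR). Without a filter on low counts (10.3% of all genes higher) Mrpl46 passed too (adjusted p = 0.0474 by edgeR), and without control library 16 so did Mrpl40 and Mrpl54.

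**Figure D5:**
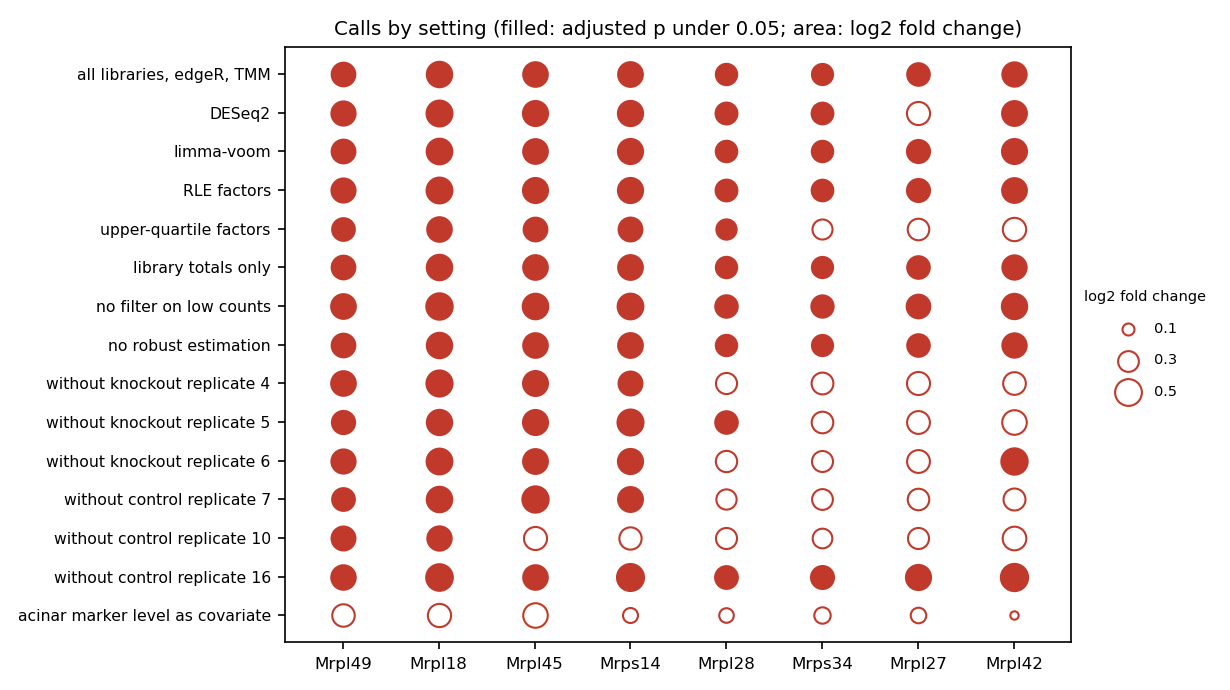
The 8 mitoribosomal genes past the threshold (columns) under each way of processing (rows), where a filled circle is an adjusted p under 0.05, an open circle one that missed it, and the area of the circle is the log2 fold change. All circles are at a positive log2 fold change. Mrpl49 and Mrpl18 are filled in each row but that of the acinar covariate, where all 8 are open.

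In the authors' deposited table, 3 of the 76 mitoribosomal genes passed an adjusted p under 0.05, all higher in the knockout: Mrpl42, Mrpl49 and Mrps14. Of 19440 genes with a value in the authors' deposited table, 6.66% were higher and 6.19% lower. The log2 fold changes of the authors' deposited table and those of edgeR differed by at most 0.02 among these genes.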

How the data were processed

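The 6 libraries of islet RNA, 3 per genotype, held 12206393 to 20412435 counts each. The submitters' processing notes name DESeq, Cufflinks 2.0.2, TopHat2 2.1.0 and bcl2fastq 1.8.4, and the mouse build mm9, with no order. The sources used here do not give the read counter, the annotation or whether strand was used. For each library the authors deposited raw counts by gene. The authors' deposited table of the comparison gives the mean signal of a group (counts scaled by size factors), the ratio or fold change, the log2 of that ratio, and p-values, raw and adjusted. The deposited counts were tested with edgeR 4.0.16 under R 4.3.3 (filterByExpr with minimum count 10 and minimum total 15, TMM, robust quasi-likelihood F test), and p-values were Benjamini-Hochberg adjusted over 14770 genes with a threshold of 0.05. The biological coefficient of variation was 14.2%. DESeq2 1.42.0, limma 3.58.1 (voom), other scalings, no filter, no robust estimation, an acinar covariate (mean log2 CPM of 14 markers) and leaving out each library were alternatives. The fits were tested on simulated data. The groups share no replicate number, so nothing was paired. Exon lengths, overlaps and neighbours came from GENCODE M21 (GRCm38), near copies from BLAST+ 2.17.0 and promoters from RefSeq (GRCm38.p6); coordinates are of those builds, not of the counts. Named genes were Neurod1, all members past the threshold, the 3 most abundant of each subunit, members without enough counts, and up to 4 genes per context list past the threshold or else the most abundant; others named were chosen after their values were seen. The members and lists were chosen with earlier results of these data known. Malsu1, Slirp, Tefm, Mterf1a and Mgme1 were not matched by symbol. Sequences of the proteins were not used here.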

Additional observations from a re-analysis of the deposited data

How the results depend on the processing

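Over 24 named genes and 14 alternatives, 262 of 336 values kept their side of the threshold. The other 74 lost the call in the same direction, and no call reversed. Values that kept their side include those of Mrpl10, Mrpl17, Mrpl50, Mrps23, Mrps18a and Yy1, which had no call to lose. The log2 fold change of Mrpl17 went from 0.01 to -0.07 with the acinar covariate, and that of Mrpl50 from 0.12 to -0.17. With the acinar covariate, 0 mitoribosomal genes rose (0 large, 0 small), the median log2 fold change was -0.0689 for the large and -0.029 for the small subunit, the mitochondrial lists had 0 higher and 2 lower, cytosolic ribosomal proteins 1 and 0, and respiratory chain genes 0 higher; the covariate is confounded with genotype. Upper-quartile factors gave 5 mitoribosomal genes (1 small), 1 cytosolic gene higher, and sums of 1.06 (large) and 1.02 (small) times control. In the mitochondrial lists, DESeq2 gave 3 and no filter 3 lower. Cytosolic genes lower were 1 each with DESeq2, limma-voom, RLE factors, library totals and no filter. No filter gave a large subunit median of 0.14. The ratio of subunit sums was 1.02 times control without the most abundant gene of each, and 1.02 by structure; that grouping, and leaving out S6 kinase rows (1 higher, 1 lower), were chosen after seeing the data. The cause of these changes was not tested. Without 1 library, mitoribosomal genes higher ranged from 2 to 10 and lower from 0 to 1, large from 2 to 8, small from 0 to 2 higher and 0 to 1 lower, mitochondrial lists from 2 to 4 higher and 1 to 3 lower, cytosolic from 0 to 3 higher and 0 to 2 lower, respiratory chain from 13 to 37 higher and 0 to 1 lower, median log2 fold changes from 0.088 to 0.175 (large) and 0.0247 to 0.129 (small), sums from 1.06 to 1.13 (large) and 1.02 to 1.08 (small), and their ratio from 1.02 to 1.04. No pseudogene row matched the symbol rule, so leaving such rows out changed nothing. No paired analysis was possible because the groups share no replicate number. With 3 libraries per group, the median 95% interval reached 0.24 to either side of the log2 fold change. These intervals are not adjusted for the number of genes, so 0.24 is not the limit for a call. Among mitoribosomal genes the smallest log2 fold change called was 0.31, of Mrps34, and Mrps18b did not pass at 0.39.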
